A study of Mus musculus with 3 samples.

Results

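Histone genes were compared between cultured aortic endothelial cells of Pim1 knockout mice and of wild-type mice. The members were all array probes whose gene name in the files began with Hist1h, Hist2h, Hist3h, Hist4h4, H2af, H3f3 or H1f, which gave 71 probes for 49 genes among 41174 probes carrying 27745 names. Of these, 47 probes measured 36 replication-dependent genes and 24 probes measured 13 genes of replacement variants. Pim1 encodes a serine/threonine kinase.

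All cells came from FVB/N mice that the labels described as female and 12 weeks old. The knockout cells were Pim1-/-, the wild-type cells carried no other named allele, and no agent was named for either. RNA was isolated 24 hours after seeding, labelled with Cy5 (red) for the knockout and with Cy3 (green) for the wild type, and each pair was hybridised to 1 of 3 two-colour arrays. The labels called these biological replicates without saying whether they came from separate animals or cultures, so p-values cover the array-to-array spread alone, which may be technical. No dyes were swapped, so a dye effect and a genotype effect on a probe cannot be told apart.

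Histones H2A, H2B, H3 and H4 form the core of the nucleosome, and linker histone H1 binds the DNA between nucleosomes. Replication-dependent genes lie mostly in clusters, are used while DNA is copied, and give transcripts that end in a stem-loop in place of a poly(A) tail, although some of them also give polyadenylated transcripts in cells that stop dividing. Replacement variants are made through the whole cell cycle from genes elsewhere, mostly as polyadenylated transcripts. The labelling kit named in the labels is of a type that primes from poly(A) tails. A ratio from a replication-dependent probe therefore describes the labelled transcripts and not the whole pool of histone mRNA.

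Probes that share sequence are shown first, because they decide how many separate measurements the H2B result holds. The 3 H2B probes below lie in the coding sequence and are 60 bases long, written 5′ to 3′. Capitals mark bases that differ from the Hist1h2bk probe. The Hist3h2bb probe starts 2 bases further along the gene, so its last 2 bases have no partner.
Hist1h2bk, chr13:22043524-22043583 (mm8, plus strand): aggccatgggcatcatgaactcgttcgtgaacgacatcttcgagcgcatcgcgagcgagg
Hist1h2bm, chr13:21729735-21729794 (mm8, plus strand): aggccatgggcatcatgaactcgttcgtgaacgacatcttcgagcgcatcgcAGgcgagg
Hist3h2bb, chr11:58770390-58770449 (mm8, minus strand): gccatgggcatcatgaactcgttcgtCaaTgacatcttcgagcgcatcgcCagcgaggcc
The Hist1h2bm probe matched the Hist1h2bk probe at 58 of 60 bases, and the Hist3h2bb probe matched it at 55 of 58. These 3 probes can each capture transcripts of the others' genes and of further H2B copies, so they count as 1 measurement of a group of H2B transcripts. RefSeq lists Hist3h2bb as a synonym of the transcribed pseudogene H2bu1-ps.

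The stem-loop shows where a replication-dependent transcript normally ends. A search for the 9-letter core TTTTCAGAG on the probe strand found it in 2 of the 71 probes, with the core in capitals here.
Hist1h3a probe, from base 37: ccaaaggctcTTTTCAGAGccaca
Hist1h2ae probe, from base 1: cTTTTCAGAGccattcacttaattcagtaa
The Hist1h3a probe (chr13:23769352-23769411, mm8, minus strand) reached over the stem-loop at its end. The Hist1h2ae probe (chr13:23578085-23578144, mm8, minus strand) began 1 base before the core, so most of it lay beyond the normal end of the stem-loop transcript.

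The arrays and cells set limits on every value that follows, where a probe is called higher or lower in the knockout if its adjusted p by limma was under 0.05. Between arrays the log2 ratios over tested probes correlated at 0.905 for arrays 2 and 3 but at 0.680 and 0.699 for array 1 with each of them. Pim1 itself was lower by 1.04 ± 0.10 on the log2 scale (limma, adjusted p = 0.0029), still above background in the knockout, and whether its probe lies in the deleted part was not tested. The labels call every donor female, but Xist was called lower and 3 of 4 Y-linked genes higher in the knockout, so genotype and sex cannot be told apart. Of 16 endothelial markers on the arrays, only 4 stood clear of background on every array in knockout RNA and 6 in wild-type RNA, and Pecam1, Cdh5, Tie1, Erg and Sox17 on none.

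Markers of other cell types moved with the genotype. Fibroblast genes had 6 of 8 tested higher and 1 lower, mesothelial genes 6 of 8 lower, smooth muscle genes 2 of 6 lower and macrophage genes 2 of 4 lower. Endothelial genes went both ways, with Eng (2.51) and Egfl7 (1.42) higher and Fli1 (-0.87) lower among 6 tested. Over all tested probes 17.1% were called, 9.5% lower and 7.59% higher. The summed normalised intensity of the 8 mesothelial markers was 6761 to 7221 in the knockout and 72315 to 94468 in the wild type. That of the 8 fibroblast markers was 213376 to 240935 in the knockout and 178061 to 211772 in the wild type, that of the 16 endothelial markers 8776 to 11661 and 5075 to 5698. For the 7 smooth muscle markers it was 30835 to 37000 in the knockout and 38028 to 54303 in the wild type, and for the 7 macrophage markers 2249 to 2597 and 3574 to 4866. Their part in the histone results was not tested, and fewer cells of a type and less RNA per cell cannot be told apart in these samples.

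Of the 71 histone probes, 65 were tested, for 46 genes; the 6 others were not well above background on enough arrays in either genotype. These were the probes of H1fnt, Hist1h2ac and Hist1h2be and 1 probe each of H2afz, Hist3h2a and Hist4h4. The test asked whether the mean log2 ratio of the 3 arrays, knockout over wild type, differed from 0 (limma, Benjamini-Hochberg adjustment over all 25191 tested probes, adjusted p under 0.05). It called 14 histone probes of 13 genes, and all 14 were lower in the knockout. Over all tested probes 17.1% were called, 9.5% lower and 7.59% higher, against 14 of 65 histone probes (21.5%) lower and 0 higher. At an unadjusted p under 0.05, limma gave 17 histone probes lower and 6 higher. With median centring in place of loess, 44.4% of all calls being higher became 57.0%, and the histone calls became 11 lower and 4 higher. All 14 called probes were negative on each array, so leaving out an array could not change their sign. They were also negative in every alternative setting in which they were tested.

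H2B probes made up 9 of the 14 calls, and 9 of 10 tested H2B probes were called. By limma, 0 of 15 replication-dependent H2A probes and 0 of 3 H3 probes were called, where 2 and 0 had an unadjusted p under 0.05. Of H4 probes 1 of 7 and of H1 probes 2 of 8 were called. Among replacement variants, 2 of 22 probes were called. The median log2 ratio was -1.27 over H2B, 0.13 over replication-dependent H2A, 0.09 over H3, -0.36 over H4 and -0.09 over H1, beside -0.0080 over all tested probes.

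**Figure D1:**
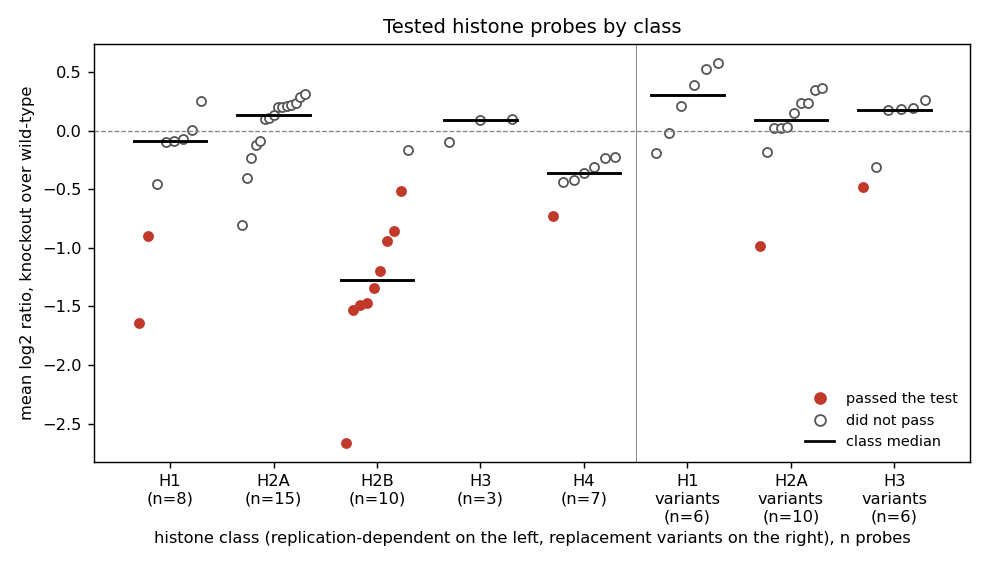
Mean log2 ratio, knockout over wild type, of each tested histone probe (circles, mean of 3 arrays) by histone class, with replication-dependent classes to the left of the line and replacement variants to the right. Filled circles passed the test, bars are class medians, and 9 of the 10 H2B probes lie among the filled circles while no replication-dependent H2A probe does.

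H2B is the core histone that pairs with H2A in the nucleosome. All 10 tested H2B probes were below 0 on all 3 arrays, with means from -2.66 to -0.17. The lowest was Hist1h2bc (current symbol H2bc4; chr13:23699815-23699874, mm8), an H2B gene of the large Hist1 cluster. Its log2 ratio was -3.10 on array 1, -2.60 on array 2 and -2.29 on array 3. No array came near 0, and the mean of -2.66 ± 0.41 (SD, n = 3) was a 6.34-fold lower level in the knockout (limma, adjusted p = 8.7e-04). On the normalised log2 intensity scale this probe averaged 11.6 in the wild type and 8.92 in the knockout, well above background in both on every array.

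The group of near-identical coding probes gave almost the same values. Hist1h2bm measured -1.71, -1.17 and -1.71 on arrays 1 to 3, Hist3h2bb -1.67, -1.13 and -1.66, and the coding Hist1h2bk probe -1.61, -1.14 and -1.66. Array 2 was the least negative in each case and arrays 1 and 3 were alike. The means of -1.53, -1.49 and -1.47 corresponded to levels 2.88-fold, 2.80-fold and 2.77-fold lower in the knockout (limma, adjusted p = 0.0027, 0.0029 and 0.0027).

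Other H2B probes did not share that stretch at 20 or more bases in a row. A second Hist1h2bk probe just upstream (chr13:22043458-22043517, mm8) measured -1.26, -0.89 and -1.46, a mean of -1.20 ± 0.29 (limma, adjusted p = 0.0053). Hist1h2ba, which in mice encodes a testis-specific H2B, measured -1.57, -0.83 and -1.62, a mean of -1.34 ± 0.44 (limma, adjusted p = 0.0086). Its probe matched the Hist1h2bk coding probe at 35 of 40 overlapping bases, with at most 13 in a row, and its array pattern was alike, and whether it captures other H2B transcripts was not tested. Without array 3 both calls were lost (limma, adjusted p = 0.056 for the upstream Hist1h2bk probe and 0.079 for Hist1h2ba).

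The remaining called H2B probes were lowest on array 1. Hist2h2be, in the smaller Hist2 cluster on chromosome 3, measured -1.51, -0.58 and -0.74 (mean -0.94 ± 0.50, limma adjusted p = 0.030). Hist3h2ba, in the Hist3 cluster on chromosome 11, measured -1.43, -0.54 and -0.62 (mean -0.86 ± 0.49, limma adjusted p = 0.038). Hist2h2bb measured -0.74, -0.53 and -0.29 (mean -0.52 ± 0.22, limma adjusted p = 0.041). All arrays were below 0 for each of them, and Hist2h2bb on array 3 was nearest to it. These 3 calls were lost without array 2, without array 3 and with no filter on dim probes, and that of Hist2h2bb also with median pixel intensities or median centring. The scanner software's own log ratio put Hist3h2ba at -1.99.

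Hist1h2bp measured -0.43, -0.04 and -0.03, a mean of -0.17 that did not pass (limma, adjusted p = 0.41), and was well above background in the knockout on 1 of 3 arrays. Hist1h2bp was tested through the wild-type channel alone, a route that favours negative ratios. Hist1h2be was too dim to be tested and measured -0.31, 0.48 and -0.05. With no filter on dim probes, 10 of 11 H2B probes were below 0 and 6 were called. The called H2B probes carry the names of 8 of 9 tested genes, but the calls cannot be assigned to 8 separate genes, since the 3 near-identical probes count as 1 measurement. Counted so, 7 of 8 H2B measurements were called. This count takes the Hist1h2ba and upstream Hist1h2bk probes as separate from those 3. That was not tested, so 7 and the counts below may be too high. Leaving out array 3 kept 4 called probes, Hist1h2bc and the 3 near-identical ones, which are 2 measurements. Leaving out array 2 kept 6 probes or 4 measurements, and leaving out array 1 kept 9 probes or 7 measurements. The sign was negative for all 10 probes in each, which follows from their being below 0 on every array. Over all tested probes the calls lower in the knockout were 2.43% without array 3, 2.45% without array 2 and 18.6% without array 1.

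**Figure D2:**
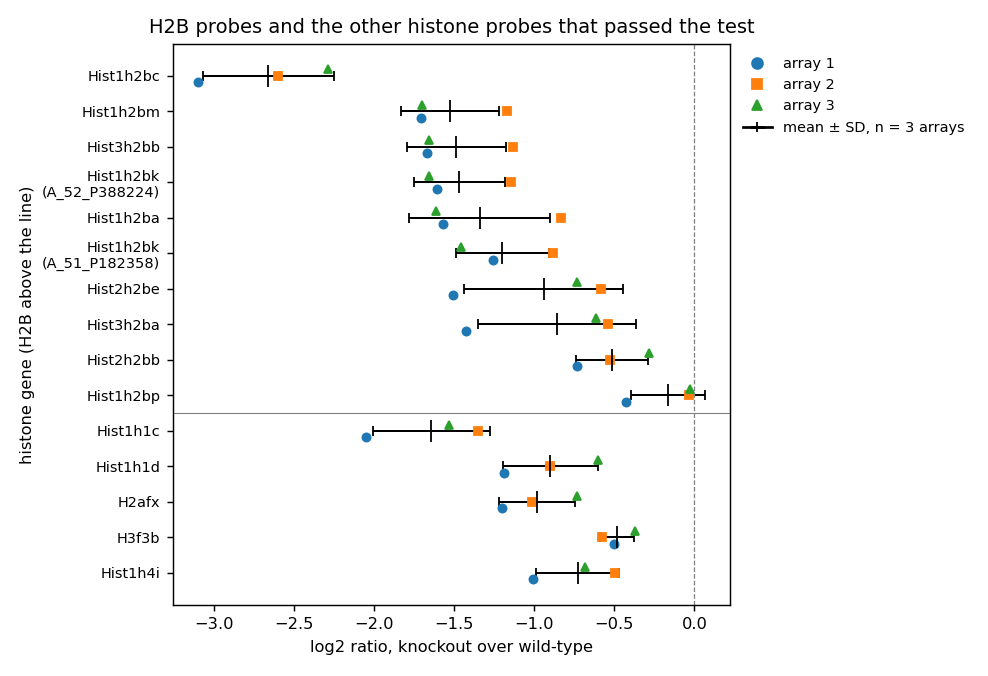
Log2 ratio, knockout over wild type, of the 10 tested H2B probes (above the line) and of the 5 other called histone probes (below it). Coloured symbols are the 3 arrays, ticks with bars the mean ± SD (n = 3). All symbols lie to the left of 0, and Hist1h2bc lies farthest, between -3.10 and -2.29.

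H2A, the partner of H2B, had a median above 0 over its replication-dependent probes. Of 15 replication-dependent H2A probes, 5 had a mean below 0. The class median on arrays 1, 2 and 3 was 0.29, 0.22 and -0.06 for H2A and -1.54, -0.86 and -1.54 for H2B. H2B minus H2A was thus -1.83, -1.08 and -1.48, a mean of -1.46 ± 0.37 (SD, n = 3 arrays), given as a description. Over the 16 alternative settings, several of which reuse the same ratios, the H2A median stayed above 0, at 0.09 to 0.43, and the H2B median between -1.48 and -1.14. With median centring 3 H2A probes were called higher, 2 of Hist2h2ac and 1 of Hist3h2a.

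Of 3 H2A and H2B pairs found head to head within 1000 bases in RefSeq, those of Hist1h2ba, Hist1h2bk and Hist1h2bp, only the first has its H2A partner among the measured genes. No RefSeq promoter was found for the called Hist1h2bc, Hist2h2be and Hist3h2bb, so pairs of these genes could have been missed. Hist1h2ba and Hist1h2aa (H2ac1) have RefSeq starts 281 bases apart on opposite strands of chromosome 13 (GRCm38.p6). Hist1h2aa measured 0.16, 0.16 and -0.01, so with loess it stayed near 0 on every array while Hist1h2ba lay below -0.8. With median centring Hist1h2aa averaged 0.50 (limma, adjusted p = 0.073) and Hist1h2ba -1.23. The Hist1h2aa probe shares 44 bases in a row with a Hist1h2af probe, so its value may include transcripts of other H2A genes. Whether the difference is that of this pair alone was not tested. The difference, Hist1h2ba minus Hist1h2aa, was -1.73, -0.99 and -1.60, a mean of -1.44 ± 0.40. It was negative on 3 of 3 arrays, where a two-sided exact sign-flip permutation test cannot go below p = 0.25.

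Replication-dependent H2A probes that share 20 or more bases with another histone gene (Hist1h2aa, Hist1h2af, Hist1h2ai and Hist1h2ak, 5 probes) had similar values. Their values ran from 0.16 to 0.42 on array 1, from 0.16 to 0.33 on array 2 and from -0.10 to 0.02 on array 3. The Hist2h2ac probes were also above 0 on all 3 arrays, with means of 0.20 and 0.24 (limma, adjusted p = 0.26 and 0.19), but they share 51 bases in a row and are 1 measurement, and the first was aligned to the strand opposite to the gene. Both Hist1h2af probes averaged above 0 as well, at 0.21 and 0.13 (limma, adjusted p = 0.30 and 0.41).

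Other H2A probes had means near or below 0. Hist1h2ae, whose probe began at the stem-loop shown above, measured -0.67, -0.27 and -0.27 (mean -0.40, limma adjusted p = 0.078). The Hist2h2aa2 probes, both aligned to the strand opposite to the gene, averaged -0.09 and -0.23 (limma, adjusted p = 0.63 and 0.18), and the first never stood well above background in knockout RNA. For these probes and those of Hist2h2ac and Hist1h2ai, the aligned strand did not settle which transcript was measured. Hist2h2aa1, at 0.10, and Hist1h2ab, at -0.13, did not pass either.

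Hist3h2a showed both directions. One probe measured 0.31, 0.59 and 0.04, and another, 567 bases downstream, measured -1.48, -0.38 and -0.55. The downstream probe was below 0 and below the first on all 3 arrays, yet neither passed (limma, adjusted p = 0.17 and 0.067). A further Hist3h2a probe lies against the strand of the gene and holds the reverse complement of H2A coding sequence, 17 bases in a row of another H2A probe. It averaged 0.29 (limma, adjusted p = 0.31) and is no measure of the H2A transcript. It is among the 15 H2A probes counted above; without it the H2A median was 0.12 over 14 probes, with 0 called, and H2B minus H2A averaged -1.45 ± 0.39 over the 3 arrays.

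**Figure D3:**
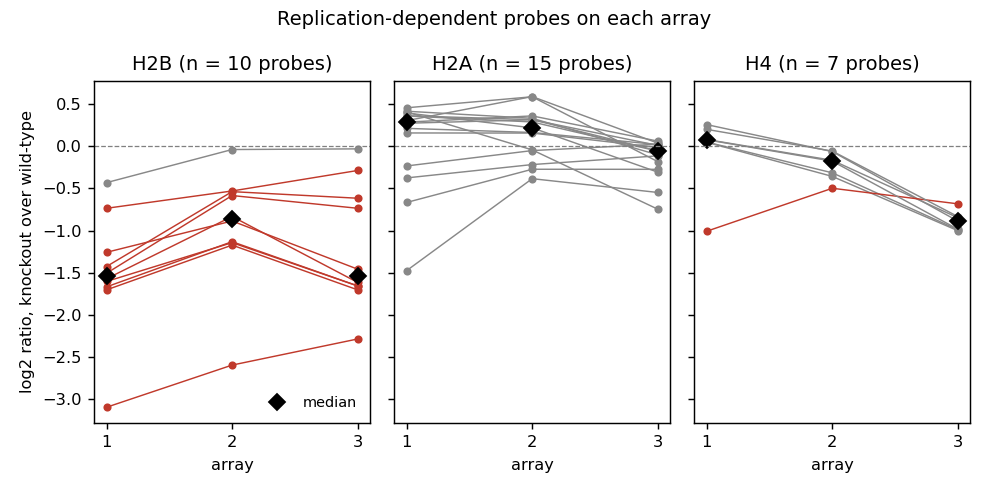
Log2 ratio, knockout over wild type, on each of the 3 arrays for replication-dependent H2B, H2A and H4 probes. Lines join the 3 values of 1 probe and do not mean an order of arrays, red marks probes that passed the test, and diamonds are class medians. H2B medians lie between -1.54 and -0.86, H2A medians between -0.06 and 0.29, and H4 medians between 0.08 and -0.89, with array 3 lowest.

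Linker histone H1 compacts chromatin between nucleosomes. Hist1h1c (H1f2; chr13:23747614-23747673, mm8), a somatic H1 that is also known to give polyadenylated transcripts, measured -2.05, -1.35 and -1.53. All arrays were well below 0, and its mean of -1.64 ± 0.36 was the lowest outside H2B, 3.12-fold lower in the knockout (limma, adjusted p = 0.0030). It stayed called when each array was left out in turn.

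Hist1h1d (H1f3) had probes at separate positions. The upstream probe measured 0.23, 0.09 and -0.61, a mean of -0.10 (limma, adjusted p = 0.77). The other, 1751 bases downstream (chr13:23564799-23564858, mm8), measured -1.19, -0.90 and -0.60 and passed (limma, adjusted p = 0.013). In knockout RNA this probe did not rise well above background on a single array, which sets a bound of at least 1.85-fold lower. It had entered the test through the wild-type channel alone, as did 5 of the 65 histone probes in all, against 0 through the knockout channel alone. The software's own log ratio put it at -2.92, an offset of 0 at -1.78, and its call was lost without array 2 or array 3 (limma, adjusted p = 0.10 and 0.052).

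Hist1h1e (H1f4) ran the other way between its probes. The upstream probe measured -0.02, -0.30 and -1.03 (mean -0.45, limma adjusted p = 0.20), and one 2320 bases downstream was near 0 on all arrays (mean 0.01, limma adjusted p = 0.96) but well above background in knockout RNA on only 1 of 3, where the offset draws ratios to 0. Hist1h1a, a replication-dependent H1, had the highest mean of its class, 0.25, from 0.61, 0.50 and -0.34. Hist1h1b averaged -0.07 and the testis-specific Hist1h1t -0.09 (limma, adjusted p = 0.82 and 0.59).

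**Figure D4:**
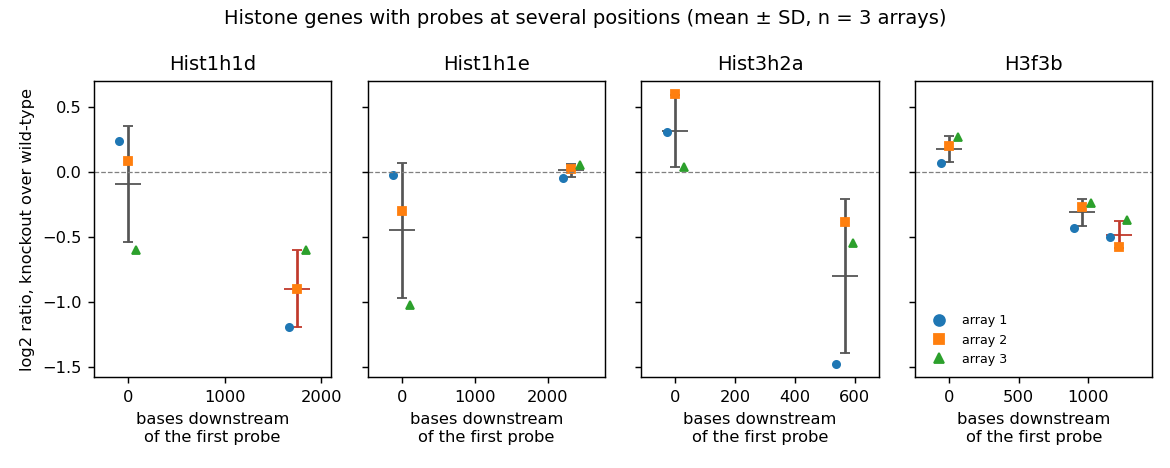
Log2 ratio, knockout over wild type, against the distance in bases from the most upstream probe of the gene, for Hist1h1d, Hist1h1e, Hist3h2a and H3f3b. Coloured symbols are the 3 arrays and bars the mean ± SD (n = 3), in red where the probe passed. In Hist1h1d, Hist3h2a and H3f3b the most downstream probe has the lowest mean, and in Hist1h1e it is near 0 but dim, well above background in the knockout on 1 of 3 arrays. Other genes with several probes are not shown and went both ways. The most downstream probe was higher in H1f0 and H2afy, although the middle H2afy probe was below the first. The most downstream probe was lower in H3f3a, Hist1h4d, Hist1h2bk, Hist2h2aa2, H2afj and Hist1h2af. In H2afj and Hist1h2af this difference changed sign on array 3.

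H4 forms a tetramer with H3 and is encoded by many copies that specify the same protein. Only Hist1h4i (H4c9) was called, at -1.01, -0.50 and -0.68 (mean -0.73 ± 0.26, limma adjusted p = 0.019). It was lowest on array 1, and its call was lost without array 2, without array 3 or with median centring (limma, adjusted p = 0.076, 0.13 and 0.053). The other 6 tested H4 probes, of Hist1h4a, Hist1h4d, Hist1h4f, Hist2h4 and Hist4h4, were lowest on array 3.

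On those 6 probes the values ran from 0.05 to 0.26 on array 1, from -0.36 to -0.06 on array 2 and from -1.0 to -0.83 on array 3. Their ranges did not overlap between arrays. The means went from -0.44 for Hist1h4f to -0.23 for Hist4h4, and none passed (limma, adjusted p = 0.22 and 0.52). Of these 6 probes 5, all but that of Hist4h4, share 20 or more bases in a row with another H4 gene, from 21 between Hist1h4a and Hist1h4d to 50 between Hist1h4d and Hist1h4f, so they are not separate measurements. Without array 1, all 7 tested H4 probes were called lower, and without array 2 or array 3 limma called 0 of 7, with 1 at an unadjusted p under 0.05 in each case. Calls over all tested probes changed as well: 18.6% were lower without array 1, 2.45% without array 2 and 2.43% without array 3.

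Replication-dependent H3 probes stayed close to 0 with loess. Median centring moved their class median from 0.09 to 0.42, without a call. Hist1h3d measured 0.09, 0.13 and 0.04 and Hist2h3c1 0.09, 0.13 and 0.08. Hist1h3a, whose probe covers the stem-loop shown above, measured -0.13, 0.05 and -0.21. Their means of 0.09, 0.10 and -0.09 did not pass (limma, adjusted p = 0.57, 0.52 and 0.59).

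Among the replacement variants, H2afx was the largest change. It encodes H2A.X, which is phosphorylated around DNA breaks, and its transcript is known in both stem-loop and polyadenylated forms. H2afx (chr9:44086945-44087004, mm8) measured -1.20, -1.01 and -0.73, a mean of -0.98 ± 0.24 or 1.98-fold lower (limma, adjusted p = 0.0070). The array values were all lower than those of any other variant probe on arrays 1 to 3. Without array 2 the call was lost (limma, adjusted p = 0.074).

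H3f3a and H3f3b both encode H3.3, the H3 variant put into chromatin outside replication. The 3 H3f3b probes were ordered along the gene: the first measured 0.07, 0.20 and 0.27, one 955 bases downstream -0.43, -0.27 and -0.24, and one 1217 bases downstream -0.50, -0.58 and -0.37. Only the last passed (mean -0.48 ± 0.11, limma adjusted p = 0.028), beside adjusted p = 0.27 and 0.085 for the others. The first probe was higher than both others on every array. The call was lost without array 2, without array 3 or with median centring (limma, adjusted p = 0.20, 0.14 and 0.18).

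The 3 H3f3a probes moved together and did not pass. They lay between -0.36 and -0.27 on array 1, between 0.59 and 0.70 on array 2 and between 0.31 and 0.35 on array 3. Array 1 was thus on the other side of 0 from the others. Their means were 0.26, 0.18 and 0.19 (limma, adjusted p = 0.43, 0.58 and 0.54).

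The macroH2A variants carry a large extra domain and are linked to silent chromatin. H2afy had 3 probes with means of 0.24, -0.19 and 0.35. The last, the most downstream, measured 0.41, 0.30 and 0.33 and came closest to the threshold among positive members (limma, adjusted p = 0.058). H2afy2 measured 0.12, 0.35 and 0.62 (mean 0.36, limma adjusted p = 0.11) and H2afy3 averaged 0.02.

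The H2A.Z genes, H2afz and H2afv, encode a variant found at promoters. H2afz averaged 0.03 (limma, adjusted p = 0.88). H2afv measured -0.97, 0.64 and 0.39, which put array 1 far from the others, and averaged 0.02 ± 0.87. The H2afj probes averaged 0.23 and 0.15 (limma, adjusted p = 0.15 and 0.37), and the first was called higher with median centring (0.64, adjusted p = 0.032). That probe shares 29 bases in a row with the Hist1h2aa probe and with a Hist1h2af probe. Its values may therefore include transcripts of replication-dependent H2A genes.

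H1f0 encodes H1.0, the linker histone known to accumulate in cells that have stopped dividing. Its probes averaged 0.21, 0.58 and 0.52, and the highest measured -0.03, 0.69 and 1.07. None passed (limma, adjusted p = 0.42, 0.13 and 0.11). H1fx averaged -0.19 and 0.39 on its probes and the oocyte H1foo -0.02, none of which passed.

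By genomic cluster, 8 of 28 tested Hist1 probes, 2 of 9 Hist2, 2 of 5 Hist3 and 0 of 1 Hist4 were called. Without H2B these became 3 of 22, 0 of 7 and 0 of 3 for Hist1, Hist2 and Hist3, and limma gave 0, 1 and 0 unadjusted p under 0.05 for the uncalled Hist2, Hist3 and Hist4 probes. The median of the replication-dependent probes was -0.23 with H2B and -0.09 without it. The variants had a median of 0.18. Called replication-dependent probes had a median GC content of 45.0% and the others 55.0%, whose part in the result was not tested.

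Promoters of H2B genes are known for an octamer, ATTTGCAT, bound by the factor Oct-1 as cells enter S phase, next to CCAAT boxes. The promoters of several members that fell together are shown, 180 bases up to the RefSeq start (GRCm38.p6). Capitals mark ATTTGCAT, CCAAT and TATAAA on either strand.
Hist1h2ba, chr13:23934157-23934336 (minus strand): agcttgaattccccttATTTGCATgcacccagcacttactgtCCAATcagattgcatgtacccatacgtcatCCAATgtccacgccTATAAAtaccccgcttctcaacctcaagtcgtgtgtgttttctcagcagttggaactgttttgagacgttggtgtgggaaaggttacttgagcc
Hist1h2bk, chr13:22035641-22035820 (plus strand): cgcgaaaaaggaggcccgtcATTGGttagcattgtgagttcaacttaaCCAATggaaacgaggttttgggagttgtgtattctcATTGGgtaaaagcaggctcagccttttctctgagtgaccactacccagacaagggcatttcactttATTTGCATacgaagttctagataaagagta
Hist1h2bm, chr13:21721864-21722043 (plus strand): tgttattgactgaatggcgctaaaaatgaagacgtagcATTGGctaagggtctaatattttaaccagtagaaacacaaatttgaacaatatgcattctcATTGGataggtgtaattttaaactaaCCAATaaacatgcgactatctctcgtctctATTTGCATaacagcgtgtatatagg
Hist2h2bb, chr3:96269520-96269699 (plus strand): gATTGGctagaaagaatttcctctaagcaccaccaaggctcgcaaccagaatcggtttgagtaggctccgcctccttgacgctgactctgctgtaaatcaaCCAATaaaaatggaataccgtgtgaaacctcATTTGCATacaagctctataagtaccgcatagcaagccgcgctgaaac
Hist1h1c, chr13:23738627-23738806 (plus strand): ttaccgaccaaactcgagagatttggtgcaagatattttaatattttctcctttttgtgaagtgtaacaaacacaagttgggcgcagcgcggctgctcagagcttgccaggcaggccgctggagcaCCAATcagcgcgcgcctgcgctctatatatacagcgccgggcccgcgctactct
These windows hold the octamer in the 4 H2B genes and not in Hist1h1c. Within 250 bases upstream, on either strand, 1.60% of 32851 RefSeq promoters held the octamer, 33.9% CCAAT and 12.4% TATAAA.

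In the same 250 bases the octamer stood in 5 of 8 windows of 7 H2B genes, and in 4 of the 5 called H2B genes with a window (not in Hist3h2ba). Among these, the Hist1h2bm probe and the coding Hist1h2bk probe are near-identical and count as 1 measurement. The called Hist1h2bc, Hist2h2be and Hist3h2bb had no window. The octamer also stood in 6 of 11 replication-dependent H2A windows, where no gene was called, in 0 of 6 H1, 0 of 2 H3 and 0 of 5 H4 replication-dependent windows. Among variants it stood in 1 of 2 H3 windows, that of H3f3b, which had 1 of 3 probes called, and in 0 of 4 H1 and 0 of 5 H2A windows. CCAAT stood in all 8 H2B and all 11 H2A windows. Both letter strings were thus present in windows of H2B, where most tested probes were called, and of replication-dependent H2A, where none was. Promoters were found for 42 of the 49 genes.

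Other genes around histones were taken from lists, each gene by its brightest tested probe, and are read beside the 17.1% called over all probes. Of 16 tested genes that process stem-loop transcripts, 2 were higher and 1 lower (18.8%), a share near that of all probes. Lsm10, a subunit of the U7 particle that cuts histone transcripts, measured 0.39, 1.19 and 0.73 (limma, adjusted p = 0.034). Ncbp1, of the cap-binding complex, averaged 0.69 and its partner Ncbp2 -0.39 (limma, adjusted p = 0.017 and 0.045). Ncbp1 was called at 2 of 2 probes and Ncbp2 at 1 of 2. Snrpd3, not called by its brightest probe, was lower at 1 of 3. Slbp, which binds the stem-loop itself, was not called.

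Of 23 tested histone chaperones, 3 were higher and 1 lower (17.4%), again near the share of all probes. Nasp, an H1 and H3-H4 chaperone, averaged 0.82, Rbbp4 0.55 and the H2A-H2B chaperone Nap1l4 0.46, while Hjurp, which loads the centromeric H3 variant, averaged -0.65 (limma, adjusted p = 0.019, 0.017, 0.034 and 0.033). Other tested probes of these genes were not called. The calls were 1 of 2 probes for Nasp, 1 of 2 for Rbbp4, 1 of 3 for Nap1l4 and 1 of 5 for Hjurp. Asf1a, not called by its brightest probe, was lower at 1 of 2. The list's median was -0.12. Nap1l1, the near relative of Nap1l4, was not called.

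Of 39 tested replication genes only Tyms, thymidylate synthase, was called by its brightest probe (2.56% of the list), higher at 0.60 ± 0.16 (limma, adjusted p = 0.020). Tyms was called at 2 of 3 probes, and Rpa2 was higher at 1 of 2, not its brightest. The list's median on arrays 1, 2 and 3 was 0.37, -0.13 and -0.03. Of 24 mitosis genes, Cdc20 was higher at 0.48 and Kif20a lower at -0.45 (limma, adjusted p = 0.029 and 0.034). Nusap1, not called by its brightest probe, was lower at 1 of 2. Of 10 cell cycle inhibitors, Cdkn2a was higher at 0.90 and Rb1 lower at -1.06 (limma, adjusted p = 0.030 and 0.0096).

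Of 13 nonhistone chromatin proteins, Hmgn2 and Hmgb3 were higher, at 0.65 and 0.40, and Hmga1 and Hmgn3 lower, at -0.89 and -0.77 (limma, adjusted p = 0.028, 0.044, 0.027 and 0.014). Hmgn3 was called at 1 of 2 probes. The medians of these 6 lists lay between -0.12 and 0.10, beside -1.27 for the H2B probes.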

How the data were processed

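For each of 45018 spots, the deposited scanner files gave pixel intensity (mean, median) with its local background, and a log10 ratio (red to green) computed by the authors' software. The submitters' processing notes name Agilent Feature Extraction 9.5.3.1. A series table repeats that log10 ratio (largest difference 0). All 3 arrays came from 1 slide and 1 scan time.

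Here, normexp (offset 50) corrected the background and loess normalised the log2 ratios of each array, with 1639 control spots and outlier-flagged spots at weight 0. Flagged spots (121, 140 and 136) were left out, no spot was saturated (0), and spots of 1 probe were averaged. Testing required a probe to stand well above background in 1 channel for 2 or more arrays. limma 3.58.1 in R 4.3.3 tested the mean of 3 arrays against 0, after a check on simulated intensities. The number of arrays limits the precision. With the offset, dim probes give ratios nearer 0. A bound sets the bright group's mean against the dim group's background floor, after Aquantile normalisation of the channels, and is open to dye bias. Errors after ± are SDs.

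The members, lists and naming rule (every called gene, every tested variant, the 4 highest and 4 lowest uncalled replication-dependent genes and those with several probes, and up to 4 called genes per list) were chosen with earlier results of these data known. Zfp100 was left out of the processing list because its name belongs to another gene in RefSeq. Array names were matched to RefSeq (GRCm38.p6) symbols, 56 probes by accession and 15 by synonym. Probe positions use the build of the array design, mm8. RefSeq gave the promoter sequences; a match is a description.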

Additional observations from a re-analysis of the deposited data

How the results depend on the processing

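Under 16 alternative settings no called histone probe changed sign, and of 1013 probe values 954 kept their side of the threshold, 22 lost and 37 gained a call. Many of these settings could not change a sign, since they reuse the same ratios or leave out or reweight arrays that were all negative. Aquantile left the ratios unchanged and the deposited table repeats the scanner software's log ratio, so neither is a separate check. With median centring, histone probes called higher were 4 (H2afj, Hist2h2ac at both probes, Hist3h2a), all calls 2710 and the variant median 0.40; H3f3b, Hist1h4i and Hist2h2bb lost their calls (adjusted p = 0.18, 0.053 and 0.10). With no filter on dim probes 1 histone probe was higher (H2afy) and Hist2h2bb, Hist2h2be and Hist3h2ba were lost. Array weights gave 23 histone calls, 4 of them higher, among 7369 over all probes, and 1 probe per gene name gave 2829 calls of 16435. The scanner software's log ratio put Hist1h1d at -2.92 and Hist3h2ba at -1.99; median pixel intensities lost Hist2h2bb (adjusted p = 0.056). Leaving out each array in turn gave 6 to 32 histone calls, 0 to 9 higher and 6 to 23 lower, 4 to 9 H2B calls and 877 to 9147 calls over all probes. Without array 1, 14 of the 14 calls remained, without array 2, 7 (Hist1h1c, Hist1h2ba, Hist1h2bc, Hist1h2bk at both probes, Hist1h2bm and Hist3h2bb), and without array 3, 6 (H2afx, Hist1h1c, Hist1h2bc, the coding Hist1h2bk probe, Hist1h2bm and Hist3h2bb). The cause of these shifts was not tested, apart from the fewer probes tested with 1 per gene name. The recounts of H2B calls and the H2A values without the opposite-strand probe were added after seeing the data. No paired analysis was possible because there is 1 group of arrays and no second group to match by replicate number; within each array the ratio already pairs knockout with wild type. A slide block was not run, since there is 1 slide. Dim probes limit what can be said of the 5 probes tested through the wild-type channel alone (of Hist1h2bp, Hist1h1d, Hist1h1e, Hist1h1t and Hist2h2aa2) and of the 6 untested probes.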
